A study of Homo sapiens with 8 samples.

Results

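The genes described here are members of the circadian clock: CRY1, CRY2, PER1, PER2, PER3, CLOCK, NR1D2, BHLHE40, BHLHE41 and DBP. Their probe sets, groups of short oligonucleotides that each report on a transcript, were taken from the deposited value table wherever the platform annotation gave a single gene symbol and that symbol was a member. This gave 22 probe sets for 9 of the 10 genes, out of 41097 single-symbol probe sets for 19775 genes in the whole table. PER1 had 0 such probe sets, since its 4 probe sets also carry the symbol of a microRNA gene, and it has no values here. The members were selected on earlier results of these same arrays, above all the log2 values of CRY1 in the 2 lines and those of BHLHE40 across groups. The arrays came from cultures of 2 human lines that the design text calls ALL, acute lymphoblastic leukaemia. The groups were SUP-B8 with GSK126, SUP-B8 with DMSO, NALM-6 with GSK126 and NALM-6 with DMSO, with 2 arrays each and 8 in all. Every culture was kept for 72 hours, GSK126 was given at 0.5 uM, and DMSO was its vehicle. GSK126 inhibits EZH2, the methyltransferase of Polycomb repressive complex PRC2 that places a silencing methyl mark on histone H3. Neither line's EZH2 genotype is stated in its labels.

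The clock is a transcriptional feedback loop. CLOCK pairs with BMAL1, and the pair binds E-box elements and switches on PER and CRY genes, whose proteins return to the nucleus and repress it. A second arm runs through NR1D2 (REV-ERB beta), a nuclear receptor that represses BMAL1 and competes with the ROR activators. BHLHE40 and BHLHE41 (DEC1 and DEC2) are basic helix-loop-helix repressors that bind the same E-boxes. DBP is an activator of the PAR bZIP family, an output of the loop that binds D-box elements. In lymphocytes BHLHE40 is also known as a gene induced by activation. All arrays share a single time point, and the labels do not say whether cultures were synchronised, so the values are levels and say nothing on rhythm.

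The E-box letters CACGTG and the related CACGTT were searched on both strands in the 250 bases before each annotated start in RefSeq (GRCh38.p14), which held 14 windows for all 10 member genes. CACGTG is its own reverse complement, so its strands give the same match. CACGTG was found in 4 member windows, those of PER1, NR1D2, BHLHE40 and BHLHE41, and in 6.34% of all 35116 windows. CACGTT was found in 4 others, those of CRY1, CRY2, PER2 and CLOCK, and in 4.55% of all windows. The D-box letters TTANGTAA occurred in 1.98% of windows, among them those of PER3 and of the second NR1D2 start. The nuclear-receptor hexamer AGGTCA occurred in 12.1% of windows, among them those of CRY2 and PER1. A match is a description of letters and not a binding site. The whole windows of CRY1 and of the members that hold CACGTG and have values here are shown, with E-box letters in capitals, each 5′ to 3′ on the gene's own strand.
CRY1, chr12:107093550-107093799, minus strand: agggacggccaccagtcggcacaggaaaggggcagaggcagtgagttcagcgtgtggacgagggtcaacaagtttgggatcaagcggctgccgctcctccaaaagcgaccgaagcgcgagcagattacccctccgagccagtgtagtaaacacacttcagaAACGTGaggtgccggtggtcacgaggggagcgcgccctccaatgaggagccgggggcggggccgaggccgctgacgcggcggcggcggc
BHLHE40, chr3:4979187-4979436, plus strand: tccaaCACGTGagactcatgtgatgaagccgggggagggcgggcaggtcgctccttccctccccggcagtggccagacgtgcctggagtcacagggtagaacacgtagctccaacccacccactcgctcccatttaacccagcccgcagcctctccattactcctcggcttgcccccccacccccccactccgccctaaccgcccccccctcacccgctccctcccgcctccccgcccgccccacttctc
BHLHE41, chr12:26125038-26125287, minus strand: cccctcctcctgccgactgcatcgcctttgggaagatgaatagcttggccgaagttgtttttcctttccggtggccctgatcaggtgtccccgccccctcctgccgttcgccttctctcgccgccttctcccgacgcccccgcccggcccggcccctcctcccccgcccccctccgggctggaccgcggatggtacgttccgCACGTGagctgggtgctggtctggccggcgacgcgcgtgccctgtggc
NR1D2, chr3:23945871-23946120, plus strand, before the second of 2 annotated starts: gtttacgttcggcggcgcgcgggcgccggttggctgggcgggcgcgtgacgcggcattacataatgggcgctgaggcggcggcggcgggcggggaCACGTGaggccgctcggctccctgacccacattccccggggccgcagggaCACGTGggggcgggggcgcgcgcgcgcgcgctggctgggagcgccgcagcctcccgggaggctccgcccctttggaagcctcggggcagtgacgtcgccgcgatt
For PER2 and CLOCK, called in the NALM-6 arrays and holding CACGTT, only the stretch around the match is shown, with the same capitals.
PER2, chr2:238288790-238288819, minus strand: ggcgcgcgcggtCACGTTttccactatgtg
CLOCK, chr4:55546102-55546131, minus strand, before the second of 2 annotated starts: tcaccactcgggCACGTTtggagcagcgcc
Counted back from the start as negative positions, the CACGTG of BHLHE41 begins at -48, the pair in NR1D2 at -155 and -105, and that of BHLHE40 at -245. The CRY1 match is CACGTT on the opposite strand and begins at -89.

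Levels are the deposited log2 values, on which a difference of 1 is a 2-fold change. Array medians lay between 7.18 and 7.24, replicate arrays had Pearson's r of 0.998 over 54675 probe sets, and pairs from different lines had 0.920 to 0.929. Where both arrays of a group were under their own medians, signal above background was not shown there. A difference against that group is then a lower bound, measured from the array medians. The B-lineage genes CD79A, CD79B, PAX5 and EBF1 averaged 11.70 to 13.31 in every group, and the 4 myeloid markers lay below the medians on all arrays. The T-cell marker CD2 and the fibroblast marker COL1A2 did so too. The T-cell markers CD3D and CD3E, erythroid HBB and fibroblast COL1A1 lay above them on all arrays, with group means of 7.47 to 9.58. A value above the median is thus no proof of expression. DNTT, the terminal transferase of precursor lymphocytes and a usual marker of NALM-6, averaged 13.54 and 13.67 in SUP-B8 arrays with GSK126 and DMSO. It averaged 6.65 and 6.86 in the arrays labelled NALM-6, below the medians, so a line's name below means the library with that label. The summed level of 4 precursor B markers was 15.43 to 15.57 (log2) on SUP-B8 arrays and 10.64 to 10.88 on NALM-6 arrays. That of the mature B markers MS4A1 and CCR7 was 8.27 to 9.25 on SUP-B8 arrays and 13.48 to 14.14 on NALM-6 arrays. The lines thus differ in these markers wherever they are compared here, and the part of this in the clock genes' differences was not tested. EZH2 averaged 11.20 and 11.21 in GSK126 and DMSO arrays labelled SUP-B8, and 11.22 and 11.21 in those labelled NALM-6.

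CRY1 and BHLHE40 were singled out from earlier results of these arrays, CRY1 for its difference between the lines, so both are described throughout without a test. For the other members, the adjusted p is that of limma over all 13161 genes tested, with Benjamini-Hochberg adjustment, and the threshold for a call was 0.05. Each gene was represented by its probe set of highest mean, which had to exceed the array median on 2 or more arrays. This left 8 of the 9 measured members, since PER3 was too dim. CRY1 passed through its SUP-B8 arrays alone and BHLHE41 through the NALM-6 GSK126 arrays alone, so their groups had to differ, and BHLHE41 is given without a p as well. The same holds for BMAL1, BMAL2, FOS and ADM in the lists below, which also passed through some groups only. FOSB passed on single arrays of different groups, close to the medians, and was not called in any comparison. With 2 arrays against 2, an exact two-sided permutation test of a single gene cannot give a p below 0.333, so the calls rest on the model.

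**Figure D1:**
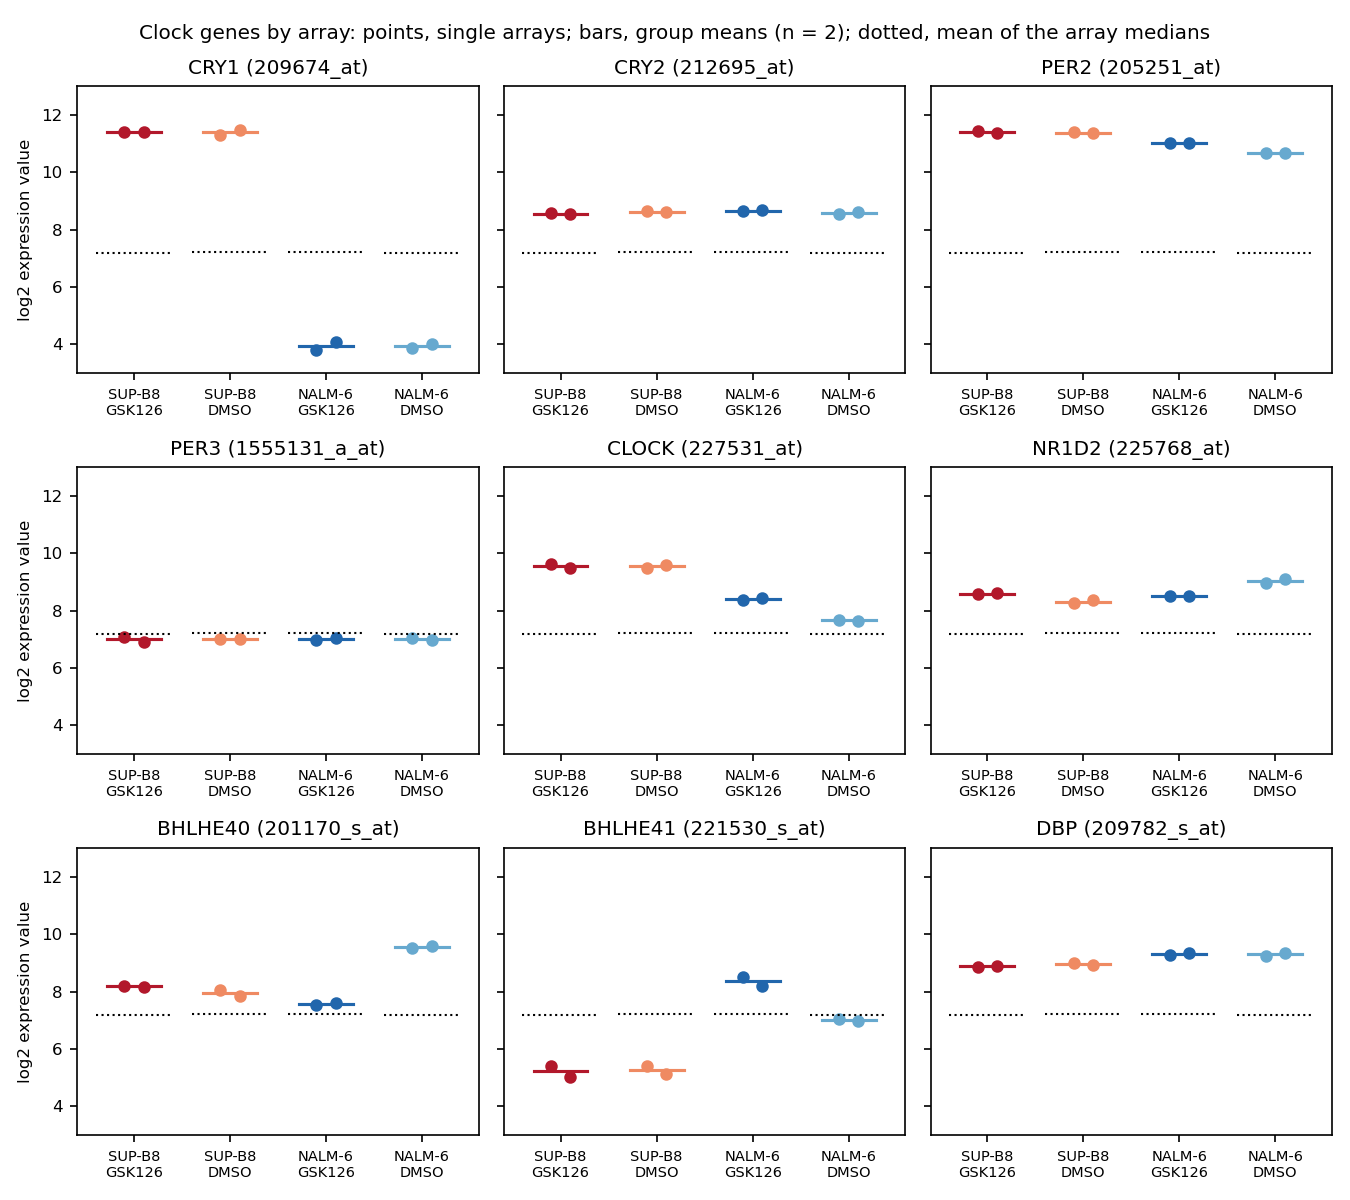
Log2 expression value (vertical axis) of the probe set that represents each of the 9 measured clock genes, on the 8 arrays, by line and treatment. Points are single arrays, bars are means of 2 arrays, and dotted lines are the mean array medians. CRY1 sits between 11.31 and 11.47 on the 4 SUP-B8 arrays and between 3.79 and 4.09 on the 4 NALM-6 arrays, and BHLHE40 is highest in NALM-6 with DMSO.

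Under DMSO the member with the largest difference between the lines was CRY1, the cryptochrome that is among the strongest repressors of CLOCK and BMAL1. CRY1 had 11.31 and 11.47 in the SUP-B8 DMSO arrays, against 3.86 and 3.99 in the NALM-6 DMSO arrays. The NALM-6 values lay far below the array medians, so CRY1 was higher in SUP-B8 by at least 4.20, or at least 18.3-fold. Under GSK126 CRY1 had 11.38 and 11.39 in SUP-B8 and 3.79 and 4.09 in NALM-6, a difference of at least 4.16. The groups did not overlap under either treatment.

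The paralogue CRY2, which encodes the other cryptochrome, was at similar levels on all 8 arrays, between 8.53 and 8.67. In DMSO arrays it had 8.63 and 8.60 in SUP-B8, against 8.54 and 8.62 in NALM-6. The difference was 0.03 ± 0.05 (SE, adjusted p = 0.616), and the arrays overlapped. CRY1 has a single probe set on this array and so has no cross-check from another.

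The PER genes encode the partners of CRY in the repressing complex. PER2 had 11.40 and 11.35 in SUP-B8 DMSO arrays, against 10.68 and 10.66 in NALM-6 DMSO arrays. It was higher in SUP-B8 by 0.71 ± 0.05 (SE, 1.63-fold, adjusted p = 2.04e-06), with no overlap. The other PER2 probe set lay between 6.37 and 6.80 on all arrays, below the medians. PER3 was represented by a probe set between 6.92 and 7.09 on all arrays, also below the medians, and no size is given for it.

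CLOCK, the activating partner of BMAL1, was higher in SUP-B8 as well. Under DMSO it had 9.47 and 9.60 in SUP-B8, against 7.68 and 7.63 in NALM-6, a difference of 1.88 ± 0.07 (SE, 3.68-fold, adjusted p = 3.99e-08). Its other 2 tested probe sets gave 1.06 ± 0.07 and 1.13 ± 0.08 (SE), both higher in SUP-B8. For the latter the NALM-6 arrays, at 6.99 and 6.98, lay below the medians, so 1.13 is a fitted value. The remaining CLOCK probe set lay below the medians on all arrays. BMAL1, which is no member, averaged 8.61 ± 0.15 in SUP-B8 DMSO arrays and 6.81 ± 0.18 (SD, n = 2) in NALM-6 DMSO arrays. NALM-6 was below the medians, so the difference was at least 1.41.

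NR1D2, BHLHE40 and DBP were lower in SUP-B8 than in NALM-6 under DMSO. NR1D2 had 8.25 and 8.37 in SUP-B8, against 8.97 and 9.11 in NALM-6, and was lower in SUP-B8 (-0.73 ± 0.06, SE, adjusted p = 9.17e-06). Its other probe set gave a fitted -1.04 ± 0.10 (SE), with the SUP-B8 arrays below the medians. BHLHE40 had 8.04 and 7.84 in SUP-B8 DMSO arrays, against 9.51 and 9.57 in NALM-6 DMSO arrays, a difference of -1.60 ± 0.07 (SE). The less bright BHLHE40 probe set gave a fitted -0.50 ± 0.08 (SE), with the SUP-B8 arrays below the medians, and the mean of both gave -1.05. That probe set passed the filter only through the NALM-6 DMSO arrays, so its direction was fixed beforehand. BHLHE41 had 5.41 and 5.13 in SUP-B8 and 7.04 and 6.98 in NALM-6, all below the medians, so no size is given. DBP had 8.99 and 8.92 in SUP-B8, against 9.24 and 9.34 in NALM-6, and was lower in SUP-B8 (-0.34 ± 0.06, SE, adjusted p = 7.47e-04). That held for the probe set that represents it, while the dimmer DBP probe set gave 0.08 ± 0.05 (SE, adjusted p = 0.230).

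Of the 6 tested members other than CRY1 and BHLHE40, 2 were called higher and 3 lower in SUP-B8 under DMSO. Without BHLHE41, 2 were higher and 2 lower of 5. Among all genes 68.3% were called, 37.8% higher and 30.6% lower, and the arrays of the 2 lines did not overlap for 81.1%. The members were chosen with these values known, and nothing is read from their count. Of 34 other clock genes listed, 24 were tested, of which 8 were called higher and 9 lower, with a median difference of -0.05 beside 0.04 over all genes. Without BMAL1 and BMAL2, 7 were higher and 8 lower of 22. Averaging each gene's probe sets, 6 were higher and 10 lower of 19. TEF, a PAR bZIP relative of DBP, was higher in SUP-B8 by 1.90 ± 0.06 (SE, adjusted p = 2.88e-08). BTRC, the F-box protein that marks PER for degradation, was higher by 1.07 ± 0.06 (SE, adjusted p = 3.64e-07). NAMPT, the NAD salvage enzyme under clock control, was lower (-1.16 ± 0.07, SE, adjusted p = 8.12e-07).

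With GSK126 on both lines, CLOCK (1.15 ± 0.07, adjusted p = 8.63e-07) and PER2 (0.39 ± 0.05, adjusted p = 9.68e-05) were still higher in SUP-B8 (SE in each case). DBP was lower (-0.43 ± 0.06, SE, adjusted p = 1.81e-04). BHLHE41 was lower in SUP-B8, where its arrays lay below the medians, by at least 1.16. NR1D2 had 8.59 and 8.59 in SUP-B8 GSK126 arrays, against 8.49 and 8.52 in NALM-6 GSK126 arrays, and was not called (0.09 ± 0.06, SE, adjusted p = 0.258). CRY2 was not called either (-0.10 ± 0.05, SE, adjusted p = 0.125). BHLHE40 had 8.20 and 8.15 in SUP-B8 and 7.52 and 7.61 in NALM-6, so here it was higher in SUP-B8, by 0.61 ± 0.07 (SE), or by 0.34 with the mean of its probe sets. Its less bright probe set was below the medians in both lines. Called in all were 2 higher and 2 lower of the 6 tested members, 1 of the lower being BHLHE41, where 67.7% of all genes were called, 35.1% higher and 32.6% lower, while for 84.7% the arrays did not overlap. Of the 24 other clock genes, 12 were higher and 7 lower, with a median difference of 0.06 beside -0.01 over all genes. Without BMAL1 and BMAL2, 11 were higher and 6 lower of 22. Averaging each gene's probe sets, 7 were higher and 7 lower of 19. BMAL1 was higher in SUP-B8 by at least 1.43, BMAL2 lower by at least 0.30, and TEF and CSNK1E, the casein kinase that phosphorylates PER, were higher by 0.83 ± 0.06 and 0.82 ± 0.06 (SE).

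**Figure D2:**
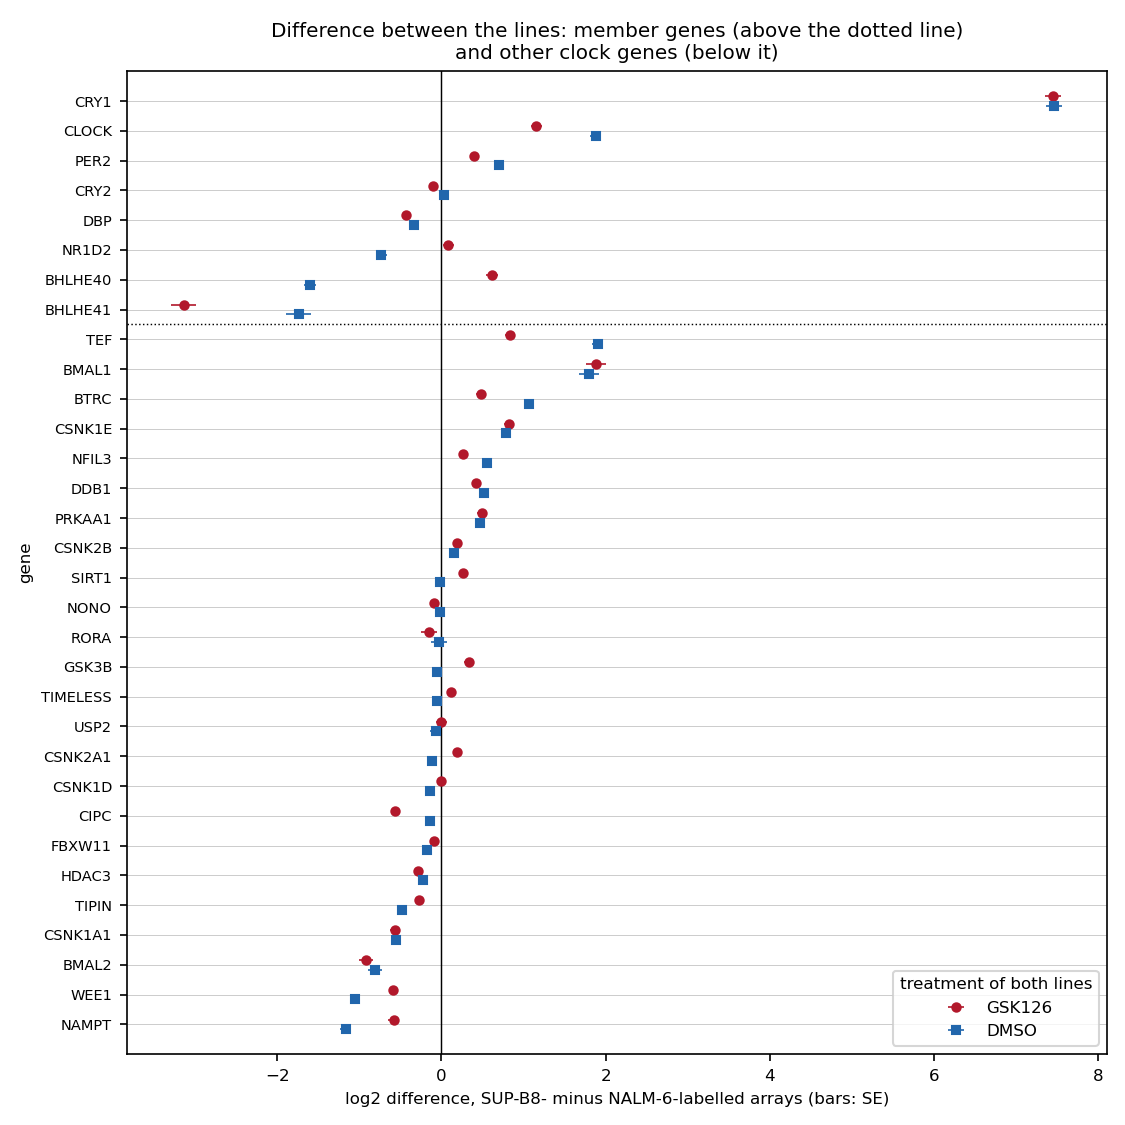
Log2 difference of SUP-B8 minus NALM-6 (horizontal axis) for the 8 tested member genes, above the dotted line, and 24 other clock genes, below it, with GSK126 (circles) or DMSO (squares) on both lines. Bars are SE of the fit. CRY1 stands at 7.45 with GSK126 and 7.46 with DMSO, fitted values against a group below the medians, as are those of BMAL1 and BMAL2 and of BHLHE41, which under DMSO was below the medians in both lines. BHLHE40 is on opposite sides of 0 in the 2 treatments.

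In the arrays labelled NALM-6, GSK126 was accompanied by lower BHLHE40 and NR1D2 and by higher BHLHE41, CLOCK and PER2. BHLHE40 had 7.52 and 7.61 with GSK126, against 9.51 and 9.57 with DMSO, and the groups did not overlap. The difference was -1.98 ± 0.07 (SE), a level 3.93-fold lower with GSK126. By size on this probe set it ranked 29 of 13161 genes, 13 among those that were lower. BHLHE40 was singled out from these arrays, so the rank is a description only. The other BHLHE40 probe set had 7.02 and 7.07 with GSK126, below the medians, against 7.62 and 7.41 with DMSO, a fitted difference of -0.47 ± 0.08 (SE). It passed the filter only through these DMSO arrays, so its direction was fixed beforehand. The 2 probe sets differed in size, and the mean of both gave -1.22 ± 0.06 (SE).

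BHLHE41, the closest relative of BHLHE40, had 8.51 and 8.20 with GSK126, against 7.04 and 6.98 with DMSO, in the NALM-6 arrays. It was higher with GSK126 by at least 1.16, or at least 2.23-fold, since the DMSO arrays were below the medians. Its 3 other probe sets were below the medians on all 8 arrays, so the value rests on this probe set. NR1D2 had 8.49 and 8.52 with GSK126, against 8.97 and 9.11 with DMSO, and fell (-0.54 ± 0.06, SE, adjusted p = 2.99e-04). Its second probe set fell too (-0.70 ± 0.10, SE, adjusted p = 8.16e-04 over 24848 probe sets).

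CLOCK had 8.35 and 8.44 with GSK126, against 7.68 and 7.63 with DMSO, and rose by 0.74 ± 0.07 (SE, 1.67-fold, adjusted p = 8.03e-05). The 2 further CLOCK probe sets that were tested rose by 0.40 ± 0.07 and 0.45 ± 0.08 (SE), each called by limma. For the latter the DMSO arrays, at 6.99 and 6.98, lay below the medians, so 0.45 is a fitted value and not a measured size. PER2 had 11.01 and 11.01 with GSK126, against 10.68 and 10.66 with DMSO, a rise of 0.34 ± 0.05 (SE, 1.26-fold, adjusted p = 8.54e-04). With the mean of its 2 probe sets, PER2 was at 0.11 and lost its call (adjusted p = 0.153). The dim probe set differed by -0.11. A PER3 probe set that does not represent the gene had 6.48 and 6.44 with GSK126, against 5.97 and 6.17 with DMSO, all below the medians.

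CRY1 stayed below the medians in NALM-6 under both treatments, with 3.79 and 4.09 with GSK126 and 3.86 and 3.99 with DMSO. CRY2 (0.07 ± 0.05, adjusted p = 0.355) and DBP (0.01 ± 0.06, adjusted p = 0.922) were not called, each with SE. DBP had 9.26 and 9.34 with GSK126 and 9.24 and 9.34 with DMSO, so its arrays overlapped. Of the 6 tested members without CRY1 and BHLHE40, 3 were called higher and 1 lower, where 39.3% of all genes were called in this comparison, 20.8% higher and 18.5% lower, while for 68.8% the arrays did not overlap. With median centring of the arrays the split over all genes turned, to 2255 higher and 2621 lower, beside 2741 and 2437 as reported. Without BHLHE41, which entered only through its high group, 2 members rose and 1 fell of 5. MS4A1 (CD20), a mature B marker, averaged 12.38 with GSK126 and 13.34 with DMSO in NALM-6 and fell (-0.95 ± 0.06, SE). Its part in the members' values was not tested. RNA of a whole culture does not tell a change in the share of expressing cells from a change per cell.

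**Figure D3:**
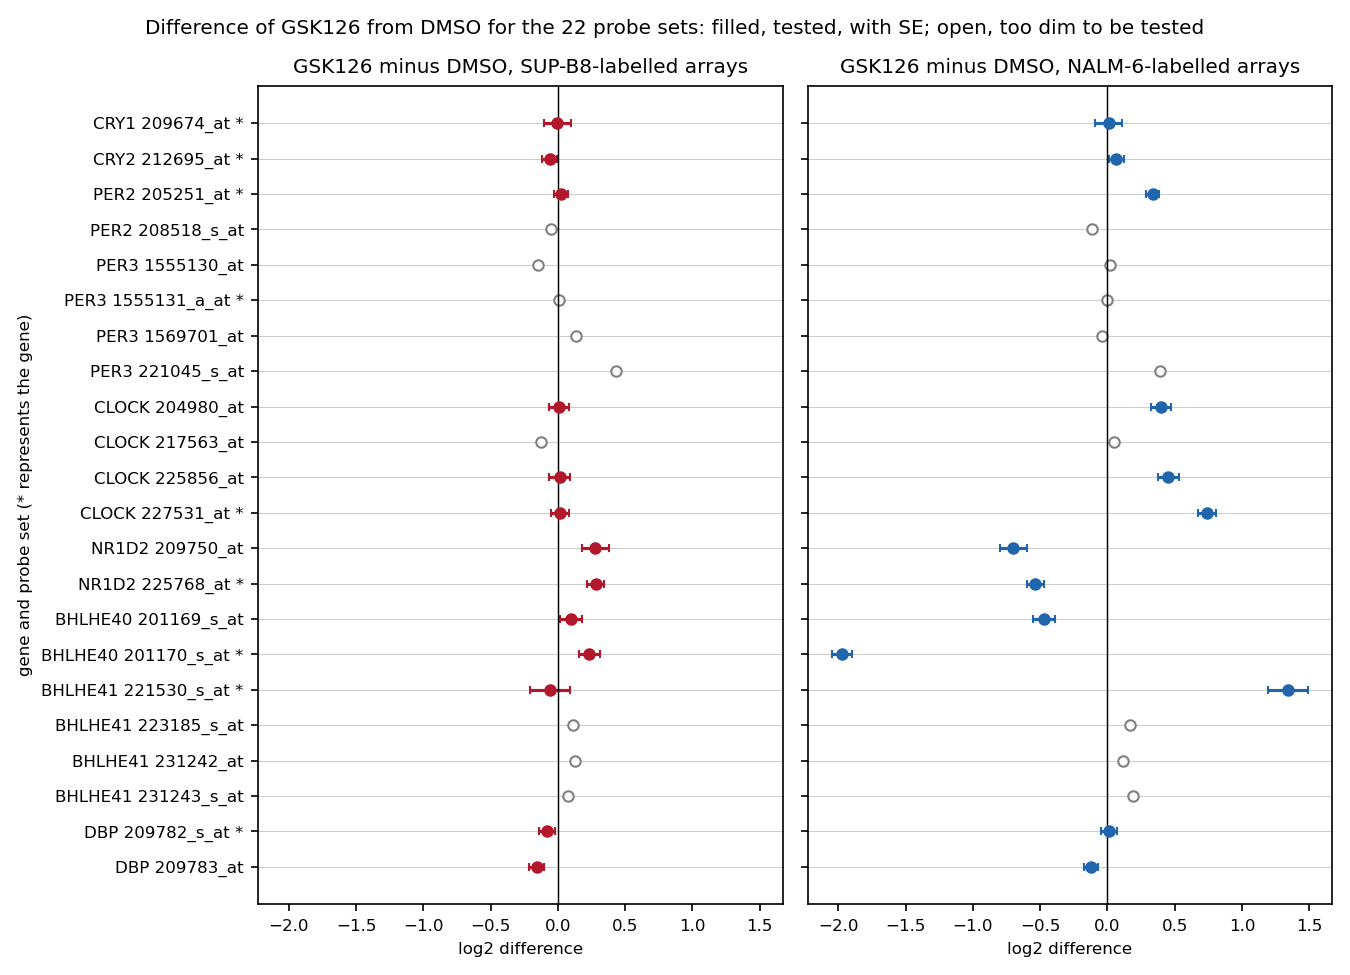
Log2 difference of GSK126 minus DMSO (horizontal axis) for each of the 22 member probe sets, in SUP-B8 (left) and NALM-6 (right). Filled points were tested and carry SE bars, open points were too dim to be tested, and an asterisk marks the probe set that represents the gene. In NALM-6 both BHLHE40 and both NR1D2 probe sets lie left of 0 and the 3 tested CLOCK probe sets right of it. The less bright BHLHE40 probe set passed the filter only through the NALM-6 DMSO arrays, so its side of 0 there was fixed beforehand. Some filled points are fitted values against a group below the medians.

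Other genes of the clock in NALM-6 numbered 4 risen and 6 fallen among 24 tested, where 39.3% of all genes were called, with a median of -0.04 beside 0.02 over all genes. Averaging each gene's probe sets, 2 rose and 9 fell of 19 tested. TEF has 4 probe sets and BTRC 5, and the values here are those of the brightest alone. TEF had 8.18 and 8.27 with GSK126, against 7.37 and 7.45 with DMSO, and rose by 0.81 ± 0.06 (SE, adjusted p = 4.15e-05). NFIL3 (E4BP4), the repressor that opposes DBP and TEF at D-boxes, rose by 0.71 ± 0.06 (SE, adjusted p = 4.07e-05). BTRC rose by 0.55 ± 0.06 (SE, adjusted p = 1.40e-04), and NAMPT fell (-0.50 ± 0.07, SE, adjusted p = 6.67e-04). The core partner BMAL1 lay below the medians with both treatments in NALM-6, at 6.78 ± 0.21 with GSK126 and 6.81 ± 0.18 with DMSO (SD, n = 2).

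BHLHE40 is known as a gene that follows growth-factor and antigen signals, so immediate-early genes were listed beside it. The list was written with earlier results of these data known, and nothing is read from its count. In NALM-6, 5 of 7 tested were called lower with GSK126 and 0 higher by limma, where 39.3% of all genes were called and 18.5% were lower. The median was -0.41 beside 0.02 over all genes. Without FOS and FOSB, 4 of 5 fell. EGR1 fell most (-2.75 ± 0.10, SE, adjusted p = 1.26e-06), and FOS, which passed the filter only through the NALM-6 DMSO arrays, was lower by at least 0.57. JUNB (-0.64 ± 0.07) and NR4A1 (-0.41 ± 0.07, SE) fell less. Across the 8 arrays the 3 genes most like BHLHE40 were taken by the root-mean-square difference of log2 profiles centred on their own means. These were VCPKMT (0.257, r = 0.949), AP1S3 (0.260, r = 0.947) and FOS (0.267, r = 0.934), which lay below the medians in all groups but NALM-6 with DMSO. FOS entered only through the group where BHLHE40 is highest, so its likeness was in part fixed beforehand. VCPKMT averaged 10.15 with GSK126 and 11.59 with DMSO in NALM-6, and 10.15 with GSK126 and 10.30 with DMSO in SUP-B8. By the same measure CRY1 was nearest to MYLK (0.116), SMAD1 (0.126) and NRIP1 (0.128), each below the medians in NALM-6. For CRY1, 789 genes had r of at least 0.99, and for BHLHE40, 2. The 8 points share 2 lines, and no p is given.

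In the arrays labelled SUP-B8 the members that passed the filter differed between treatments by -0.08 to 0.28 on the probe sets that represent them. CRY1 had 11.38 and 11.39 with GSK126, within the 11.31 and 11.47 of the DMSO arrays. BHLHE40 had 8.20 and 8.15 with GSK126, against 8.04 and 7.84 with DMSO, a difference of 0.23 ± 0.07 (SE) without overlap. Its other probe set had 7.08 and 7.15 with GSK126 and 7.09 and 6.95 with DMSO, all below the medians, and overlapped. NR1D2 had 8.59 and 8.59 with GSK126, against 8.25 and 8.37 with DMSO, and was not called (0.28 ± 0.06, SE, adjusted p = 0.0696). With an intensity-trended robust variance prior, NR1D2 was called higher (adjusted p = 0.0323). Its second probe set gave a fitted 0.28 ± 0.10 (SE), with the DMSO arrays below the medians, and was not called. Of the 6 tested members without CRY1 and BHLHE40, 0 were called by limma, where 2.25% of all genes were, 1.91% higher and 0.334% lower. Arrays did not overlap for 49.5% of genes, and 2198 of 13161 genes had an unadjusted p under 0.05.

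CLOCK (0.01 ± 0.07), PER2 (0.02 ± 0.05), CRY2 (-0.06 ± 0.05) and DBP (-0.08 ± 0.06) had adjusted p of 0.514 or more, each with SE. BHLHE41 was below the medians with both treatments. MS4A1 averaged 9.11 with GSK126 and 8.03 with DMSO in SUP-B8 and rose by 1.07 ± 0.06 (SE), the direction opposite to that in NALM-6, and its part in the members' values was not tested. The PER3 probe set noted above had 7.20 and 7.02 with GSK126, against 6.64 and 6.71 with DMSO. It had 1 of 8 arrays above its median and was not tested. Of the 24 other clock genes, only NFIL3 was called (0.42 ± 0.06, SE, adjusted p = 0.0129), with 10.91 and 10.93 with GSK126 against 10.45 and 10.54 with DMSO. NFIL3 lost its call without DMSO replicate 1 (adjusted p = 0.0537), GSK126 replicate 1 (0.0816) or GSK126 replicate 2 (0.0760) of SUP-B8. The list had a median of -0.03 beside -0.02 over all genes. Among immediate-early genes 0 of 7 were called by limma, with EGR1 at -0.28 ± 0.10 and JUNB at -0.22 ± 0.07 (SE).

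The difference between the responses, SUP-B8 minus NALM-6, was tested in the same fit. CLOCK (-0.73 ± 0.09, adjusted p = 0.00118) and PER2 (-0.31 ± 0.07, adjusted p = 0.0120) responded more upward in NALM-6, with SE in each case. For NR1D2, which fell in NALM-6 and was not called in SUP-B8, the difference was 0.82 ± 0.09 (SE, adjusted p = 4.89e-04). That of BHLHE40 was 2.21 ± 0.10 (SE) on its brighter probe set and was not tested. Its rank of 18 of 13161 by size is likewise a description only. The mean of its probe sets gave 1.39. The less bright one alone gave a fitted 0.57, with only the NALM-6 DMSO arrays above the medians. CRY2 (-0.13 ± 0.07, adjusted p = 0.235) and DBP (-0.09 ± 0.08, adjusted p = 0.474) were not called. In all, 1 member was called higher and 3 lower of the 6 tested (1 and 2 of 5 without BHLHE41), where 25.4% of all genes were called, 10.9% higher and 14.5% lower. Median centring of the arrays split the called genes into 1562 higher and 1379 lower, beside 1440 and 1903 as reported. PER2 was no longer called without SUP-B8 GSK126 replicate 2 (adjusted p = 0.0546), or with the mean of its probe sets (-0.13, adjusted p = 0.288). Among the 24 other clock genes 5 were higher and 4 lower, with a median of 0.03 beside -0.04 over all genes. Averaging each gene's probe sets, 6 were higher and 2 lower of 19. TEF (-1.07 ± 0.09), BTRC (-0.59 ± 0.08), NAMPT (0.58 ± 0.10) and WEE1, a mitotic kinase under clock control (0.47 ± 0.07, SE), were those of largest size.

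**Figure D4:**
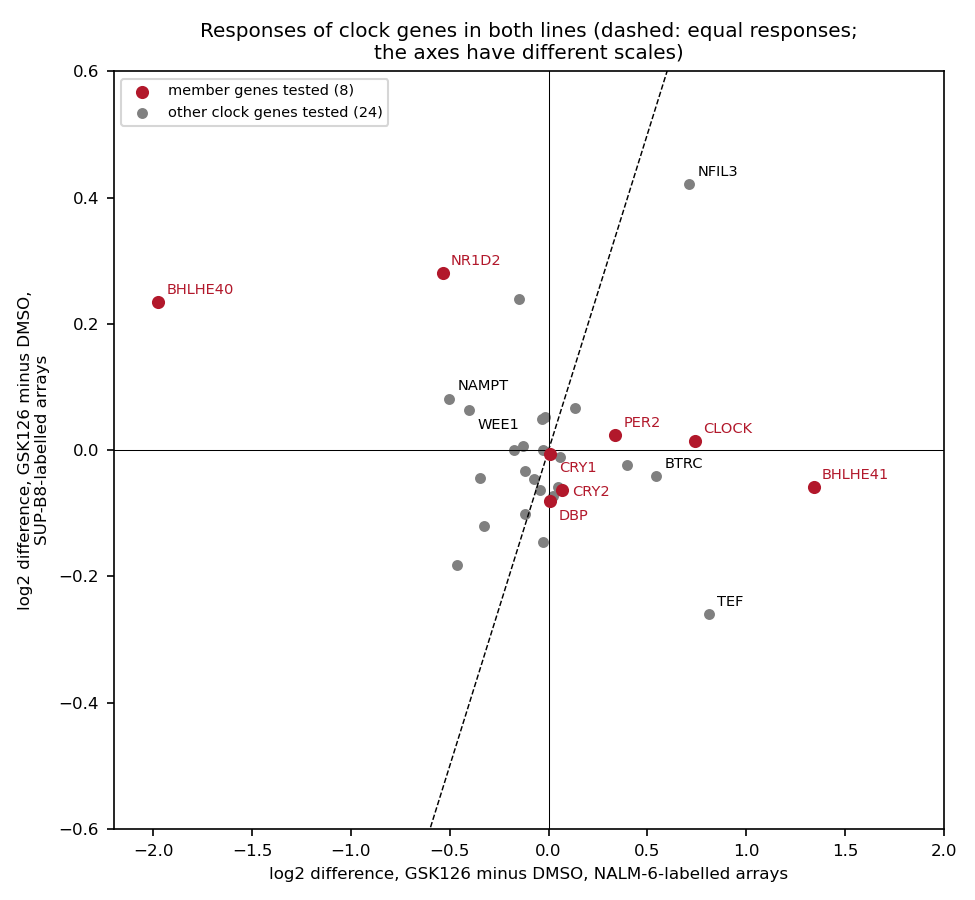
Log2 difference of GSK126 minus DMSO in NALM-6 (horizontal) and SUP-B8 (vertical, on a finer scale) for the 8 tested member genes and 24 other clock genes. The dashed line marks equal responses, and genes with a group below the medians, such as BHLHE41, are drawn at their fitted values. BHLHE40, at -1.98 and 0.23, and NR1D2, at -0.54 and 0.28, lie left of 0 and above it, while CLOCK, PER2 and BHLHE41 lie to the right close to 0 on the vertical axis.

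Across the 4 groups the order of BHLHE40 was 9.54 ± 0.05 in NALM-6 with DMSO, 8.17 ± 0.03 in SUP-B8 with GSK126, 7.94 ± 0.14 in SUP-B8 with DMSO and 7.56 ± 0.07 in NALM-6 with GSK126 (SD, n = 2). No neighbours in that order overlapped, and the closest were the 2 SUP-B8 groups. This order is that of the brighter probe set. The other had 7.52, 7.12, 7.02 and 7.05 in the same groups, and only NALM-6 with DMSO was above the medians. There the 2 SUP-B8 groups overlapped. NR1D2 shared the upper end of BHLHE40, at 9.04 ± 0.09 (SD, n = 2) in NALM-6 with DMSO, while the other 3 groups lay between 8.31 and 8.59. The CLOCK order was 9.55 ± 0.08 in SUP-B8 with GSK126, 9.54 ± 0.09 in SUP-B8 with DMSO, 8.40 ± 0.07 in NALM-6 with GSK126 and 7.66 ± 0.04 in NALM-6 with DMSO (SD, n = 2). The 2 SUP-B8 groups overlapped and the others did not.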

How the data were processed

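The authors deposited a series table with a log2 value for each of 54675 probe sets on the 8 arrays, and it was used without further transformation. Its scale was judged from the range of the deposited log2 values, and near-equal array medians and quartiles show normalization between arrays. Per the submitters' processing notes MAS5 and RMA were used, in roles not given in the sources used here. In the platform annotation 41097 probe sets had 1 symbol, 1801 had several and 11777 were not listed. Precision is limited by having 2 arrays a group.

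Groups came from the sample titles, which call the replicates biological. Limma (version 3.58.1, R version 4.3.3) was fitted to 13161 genes with a mean for each group and 4 residual degrees of freedom, and was tested on simulated data. The 5 comparisons were GSK126 against DMSO in each line, the difference of these, and SUP-B8 against NALM-6 under each treatment. The members and gene lists were chosen with earlier results of these data known. Named genes are all members, up to 4 called genes of largest size per list and comparison (up to 2 where none was called), and the 3 genes most like CRY1 and BHLHE40. BMAL1 and MS4A1 are also given where a member's result stands beside them. Same-numbered replicates did not deviate together within the lines (r of -0.04 and -0.02), and between the lines r was -0.20 to 0.13. The fit has no block, and a replicate block was an alternative. Alternatives changed the filter, probe set choice, unit of the test, normalization, centring, variance prior, arrays in the fit or block, or left out an array. Probe sets were also tested singly (24848 in all). Promoter windows came from RefSeq and were searched in Python version 3.11.15.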

Additional observations from a re-analysis of the deposited data

Results flagged for a closer look

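These genes responded differently to GSK126 in the 2 lines (SUP-B8 minus NALM-6, log2). By limma's test of the difference itself these were NR1D2 (0.82), CLOCK (-0.73) and PER2 (-0.31, not called at -0.13 with the mean of its probe sets or without SUP-B8 GSK126 replicate 2). BHLHE41 had a fitted value of -1.40, but 3 of its 4 groups lay below the array medians and it entered the test only through the group where it is high, so its difference had to appear. Outside the members they were TEF (-1.07), BTRC (-0.59), NAMPT (0.58) and WEE1 (0.47), each by its brightest probe set. For BHLHE40 the value was 2.21 and was not tested. On its brighter probe set every GSK126 array lay above the DMSO arrays in SUP-B8 and below them in NALM-6. On the other, the SUP-B8 arrays were below the medians and overlapped. The value was 1.39 with the mean of both.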

How the results depend on the processing

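For GSK126 against DMSO in SUP-B8, 0 members, 1 other clock gene and 296 genes in all were called by limma. An intensity-trended robust prior called 1 member, 3 other clock genes and 777 genes. Renewed quantile normalization called 2 other clock genes. Without the filter on dim probe sets 160 genes were called, and with only the 4 SUP-B8 arrays in the fit 191. Leaving out 1 array gave 0 to 1 other clock genes and 27 to 217 genes, the lowest without SUP-B8 GSK126 replicate 1. Averaging each gene's probe sets, 2 members were called in NALM-6 and 2 in the difference of the responses, against 4 in each as reported, because BHLHE41 was then too dim to be tested and PER2 was not called. The cause of the other changes was not tested. Under a replicate block the members called were 0 in SUP-B8, 4 in NALM-6, 4 in the difference, 5 under DMSO and 4 under GSK126, as without it, and 202 genes were called in SUP-B8. Of 617 values of tested genes under other settings, 7 lost their call and 3 gained one. Of 648 with 1 array left out, 17 lost it, and in neither case did a called value reverse. A gene too dim to be tested under a setting, such as BHLHE41 with averaging, was not counted there. For BHLHE40 the mean of its probe sets gave -1.22 in NALM-6, 1.39 for the difference of the responses, and -1.05 under DMSO and 0.34 under GSK126 between the lines. The table holds no background signal, so dim members have only bounds.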

Other observations

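BHLHE40 and BHLHE41 are also known as hypoxia-inducible genes, and 11 genes of that response were listed, of which 10 were tested. In NALM-6, 1 rose and 2 fell with GSK126, with a median of 0.02 beside 0.02 over all genes and 39.3% of all genes called. KDM3A, a histone demethylase, averaged 10.15 with GSK126 and 10.78 with DMSO and fell (-0.63 ± 0.06, SE, limma adjusted p = 1.17e-04), and ANKRD37 fell (-0.40 ± 0.06, SE, limma adjusted p = 9.50e-04). P4HA1, a collagen prolyl hydroxylase, rose by 0.21 ± 0.06 (SE, limma adjusted p = 0.0299), a call lost without any of the 4 NALM-6 arrays and when its probe sets were averaged (0.01). In SUP-B8 0 of 10 were called by limma, with VEGFA at -0.25 ± 0.06 and NDRG1 at 0.25 ± 0.10 (SE). Under DMSO 68.3% of all genes were called between the lines. Of this list, 4 were higher and 3 lower in SUP-B8 than in NALM-6 (4 and 2 of 9 without ADM). Among these ADM, which encodes the vasodilator adrenomedullin and passed the filter only through NALM-6, was lower in SUP-B8 by at least 0.82, and BNIP3, a mitophagy receptor, was higher by 1.41 ± 0.06 (SE, limma adjusted p = 9.79e-08).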
